A study of Equus caballus with 3 samples.

Results

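*HMX2*, *HMX3*, *HAND2*, *MSX1*, *MSX2*, *PRRX1*, *TWIST1*, *TWIST2*, *PITX1* and *TBX15* are 10 transcription factors of embryonic patterning, most of them of the mesenchyme, among the 29927 gene symbols of the equine matrices. They were selected on their levels in mesenchymal stromal cells (MSCs) of 3 tissue sources and on the cells in which they were found, so those values are given here as a description, with no test. All 10 had a row in each of the 3 matrices. In the cells kept for analysis, all 10 had at least 1 unique molecular identifier (UMI) in adipose tissue (AT) and bone marrow (BM), and 9 had one in peripheral blood (PB), where *HMX3* was listed at 0.

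The MSCs came from 1 healthy Warmblood mare aged 10 years and were cultured and passaged before droplet-based single-cell RNA sequencing of transcript 3′ ends, with 1 library for AT, 1 for BM and 1 for PB. No treatment distinguished the groups, and the library titles give the sources, while the deposited source name reads blood mononuclear cells for every library. With 1 horse and 1 library per source, tissue source, culture and library cannot be told apart, and all intervals are 95% intervals of counting error only (exact Poisson for levels, Clopper-Pearson for shares of cells). A level is the sum of a gene's UMIs over the kept cells of a source, scaled to the total of that source (CPM), and fewer expressing cells and less RNA per cell cannot be told apart in such a sum.

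Patterning factors of the mesenchyme bind DNA and give limb buds, branchial arches, body wall and heart fields their regional programmes. Homeobox factors (*MSX*, *PITX1*, *PRRX1*), basic helix-loop-helix factors (*HAND2*, *TWIST1*, *TWIST2*) and T-box factors (*TBX15*) take part. *HMX2* and *HMX3*, homeobox factors as well, are known rather for the inner ear and hypothalamus. *MSX1* and *MSX2* act in tooth, skull and limb bud mesenchyme downstream of BMP signals. *PITX1* specifies the hindlimb, *PRRX1* marks limb and craniofacial mesenchyme, and *TBX15* acts in skeletal and adipose development. *HAND2* acts in the heart, the branchial arches and the posterior limb bud. *TWIST1* and *TWIST2* hold mesenchymal progenitors undifferentiated, and TWIST and HAND proteins pair with each other and with E proteins. Fibroblasts and stromal cells in culture are known to keep part of such regional programmes.

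The libraries were of like depth. Barcodes were kept if they held between 2500 and 15000 UMIs, of which no more than 3% mitochondrial. Kept were 5403 AT-, 5580 BM- and 5318 PB-derived MSCs, with median UMIs per cell of 6874.5 to 7750. The 9 stromal marker genes, *VIM* and *COL1A1* among them, summed to between 20819 and 32429 CPM. Of the 9 haematopoietic markers found in the matrices, *PTPRC*, the pan-leukocyte antigen, had no UMI in any source, and the list summed to 7.43, 11.5 and 5.36 CPM in AT, BM and PB, most of it from *CD68* (6.88, 11.03 and 4.85 CPM), a lysosomal protein of macrophages. The summed level of the 5 endothelial markers found in the matrices was at most 0.192 CPM. Osteoblast markers differed, with summed levels of 3.90 CPM in AT, 156 CPM in BM and 369 CPM in PB, where 2 of 5, 1 of 5 and 0 of 5 of them were at 0. In the same order, 7 smooth muscle markers summed to 2493, 3093 and 2377 CPM and 6 adipocyte markers to 3.75, 11.1 and 0.432 CPM. The 5 chondrocyte markers summed to 2.00, 13.0 and 7.02 CPM and 8 neural crest-derived markers to 8.25, 0.0994 and 0.0240 CPM. Barcodes were shared between libraries. Of kept barcodes, 42 were kept in both AT and BM, 37 in both AT and PB and 38 in both BM and PB. All 5318 kept PB barcodes also occurred in another matrix, mostly among AT barcodes with too few UMIs to be kept.

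The homeobox pair *HMX2* and *HMX3* was highest in BM. *HMX2* had 1.68 CPM (1.30 to 2.13, 67 UMIs) in AT, 13.8 CPM (12.7 to 15.04, 557 UMIs) in BM and 0.0961 CPM (0.0262 to 0.246, 4 UMIs) in PB. *HMX3* had 1.03 CPM (0.736 to 1.39, 41 UMIs) in AT, 6.14 CPM (5.40 to 6.95, 247 UMIs) in BM and no UMI in PB, which allows a level of up to 0.0721 CPM at a floor of 3 UMIs over the library. The intervals of the sources did not overlap for either gene. Without the 25% of cells of each source highest in G2/M genes, described further on, *HMX2* was at 1.71 CPM (1.27 to 2.24) in AT and 3.17 CPM (2.56 to 3.90) in BM, and *HMX3* at 1.04 CPM (0.705 to 1.47) and 1.29 CPM (0.909 to 1.78), with intervals that overlapped for *HMX3*. Over all kept cells, *HMX2* was 8.26-fold (6.40 to 10.8) higher in BM than in AT and 17.4-fold (6.50 to 65.9) higher in AT than in PB. *HMX3* was 5.99-fold (4.29 to 8.55) higher in BM than in AT, and against the PB floor it was at least 14.2-fold higher in AT and at least 85.2-fold higher in BM. Both genes lie on the minus strand of chromosome 1 in the matrices, and in the RefSeq annotation of the later assembly TB-T2T they are adjacent protein-coding genes, with the mitotic checkpoint gene *BUB3* on the other side of *HMX2*.

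The *MSX* homeobox genes and *PITX1* were highest in PB. *MSX1* had 17.9 CPM (16.6 to 19.2) in AT, 14.7 CPM (13.5 to 15.9) in BM and 79.6 CPM (76.9 to 82.3) in PB. Its paralogue *MSX2* had 15, 27 and 81 UMIs, or 0.375 CPM (0.210 to 0.619), 0.671 CPM (0.442 to 0.976) and 1.95 CPM (1.55 to 2.42), in the same order of sources. The AT and BM intervals of *MSX2* overlapped, and its PB interval lay above both. *PITX1* had 1 UMI in AT, 5 in BM and 115 in PB, or 0.0250 CPM (0.000633 to 0.139), 0.124 CPM (0.0403 to 0.290) and 2.76 CPM (2.28 to 3.32). The PB level of *PITX1* was 22.2-fold (9.26 to 69.8) that of BM and 110.5-fold (19.4 to 4401) that of AT, the latter resting on the single AT UMI. AT and BM were not distinguishable for *PITX1* at this depth.

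*PRRX1* was found in most cells of all sources. Its levels were 342 CPM (336 to 348) in AT, 593 CPM (586 to 601) in BM and 677 CPM (669 to 685) in PB. It was thus 1.74-fold (1.70 to 1.77) higher in BM and 1.98-fold (1.94 to 2.02) higher in PB than in AT, and PB exceeded BM 1.14-fold (1.12 to 1.16). With trimmed mean of M-values (TMM) scaling factors, the levels were 368, 527 and 708 CPM in AT, BM and PB. The *PRRX1* folds thus moved with the scaling by more than their intervals. Fold intervals of the other factors leave out the scaling as well, and those of *MSX1*, *TWIST1* and *TBX15* are taken up at the end.

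Among the basic helix-loop-helix factors, the levels of *HAND2* and *TWIST1* were lowest in AT and highest in PB, while *TWIST2* had the opposite order. *HAND2* had 0.100 CPM (0.0273 to 0.256, 4 UMIs) in AT, 7.43 CPM (6.61 to 8.32) in BM and 25.2 CPM (23.7 to 26.8) in PB. *TWIST1* had 18.1 CPM (16.8 to 19.5), 52.6 CPM (50.4 to 54.9) and 65.4 CPM (63.0 to 67.9). *TWIST2* had 3.75 CPM (3.18 to 4.403), 1.54 CPM (1.18 to 1.98) and 0.456 CPM (0.275 to 0.713). None of the intervals of these 3 genes overlapped between sources. *HAND2* was 74.3-fold (28.7 to 274) higher in BM and 252-fold (98.1 to 926) higher in PB than in AT, and 3.39-fold (2.98 to 3.87) higher in PB than in BM. The AT level rests on 4 UMIs, and without the barcodes that another library holds it was 0.0255 CPM, beside 7.40 CPM in BM. With all barcodes of at least 500 UMIs it was 2.52 CPM, beside 8.66 CPM in BM and 25.7 CPM in PB, and most AT barcodes added there also occur in another library. Without the 25% of cells highest in G2/M genes, *HAND2* was at 2.41 CPM in BM and 24.2 CPM in PB, a log2 ratio of -2.89 in place of -1.64. The 2 *TWIST* genes ran against each other, *TWIST1* being 3.62-fold (3.33 to 3.93) higher in PB than in AT and *TWIST2* 8.22-fold (5.08 to 14.0) higher in AT than in PB.

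The T-box factor *TBX15* was highest in AT. It had 21.3 CPM (19.9 to 22.8, 852 UMIs) in AT, 8.30 CPM (7.43 to 9.24, 334 UMIs) in BM and 0.529 CPM (0.331 to 0.8002, 22 UMIs) in PB. AT exceeded BM 2.57-fold (2.26 to 2.92) and PB 40.3-fold (26.5 to 64.7), and BM exceeded PB 15.7-fold (10.2 to 25.4).

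**Figure D1:**
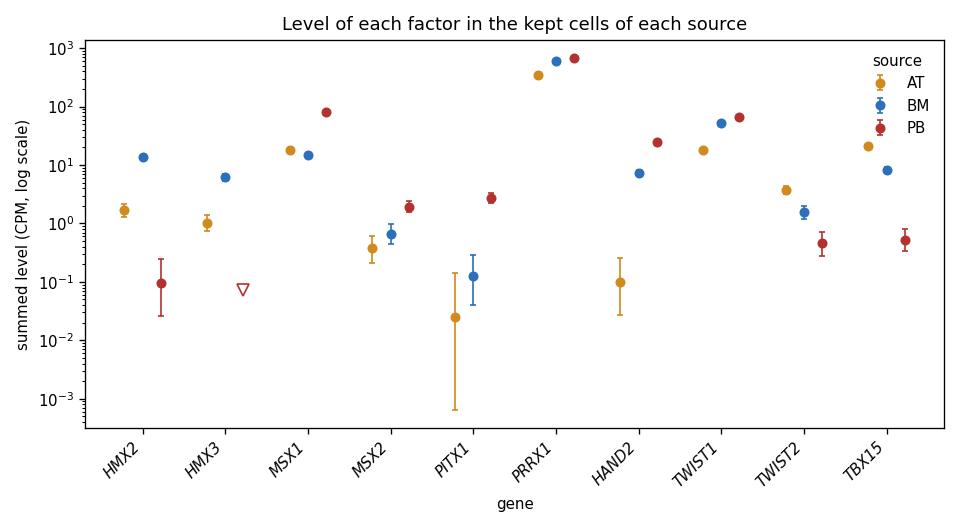
Summed level of each factor (CPM, logarithmic axis) in the kept cells of AT, BM and PB, with bars for the 95% Poisson interval of counting error and an open triangle at the floor of 3 UMIs where a source had no UMI. *HMX2* and *HMX3* were highest in BM (13.8 and 6.14 CPM), *TBX15* and *TWIST2* in AT (21.3 and 3.75 CPM) and the other 6 factors in PB.

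Differences between sources were also expressed as log2((CPM + 1)/(CPM + 1)), which understates the change of low genes, and a ratio past 1 was counted. The same rule was applied to the 13501 genes with at least 30 UMIs over the libraries, and because the factors were chosen with these differences known, nothing was read from the comparison of shares. Between AT and BM, 1 of the 10 factors was higher in AT (*TBX15*, 1.26), against 2.51% of all genes, and 4 were lower (*HMX2*, -2.47, *HMX3*, -1.82, *HAND2*, -2.94, and *TWIST1*, -1.49), against 7.71%. Between AT and PB, 4 were higher in AT (*HMX2*, 1.29, *HMX3*, 1.02, *TWIST2*, 1.71, and *TBX15*, 3.87), against 4.30%, and 5 were lower (*HAND2*, -4.57, *MSX1*, -2.10, *MSX2*, -1.10, *TWIST1*, -1.80, and *PITX1*, -1.88), against 5.40%. Between BM and PB, 3 were higher in BM (*HMX2*, 3.76, *HMX3*, 2.84, and *TBX15*, 2.61), against 5.52%, and 3 were lower (*HAND2*, -1.64, *MSX1*, -2.36, and *PITX1*, -1.74), against 2.16%. *PRRX1* passed in no comparison, the nearest being -0.98 for AT over PB. The median absolute log2 ratio of the 10 factors was 1.08, 1.75 and 1.69 for AT against BM, AT against PB and BM against PB, beside 0.33, 0.25 and 0.29 for all genes tested. The median signed ratio was -0.54, -1.04 and -0.25 for the factors and -0.21, -0.03 and 0.18 for all genes. The *HMX3* ratio of AT over PB lay just past the threshold and was 0.93 with all barcodes of at least 500 UMIs, where that of *MSX2* was -0.92. Of the 6155 AT barcodes under the lower limit, from which those were added, 5716 also occurred in another library, and *HAND2* was at 25.2 CPM in these, as in the kept PB cells. The *TWIST2* ratio of AT over BM, 0.90 here, was 1.09 with TMM factors.

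The shares of cells with a UMI followed the levels. *PRRX1* was found in 85.5% (84.6 to 86.5%) of AT-, 95.2% (94.6 to 95.8%) of BM- and 97.2% (96.8 to 97.7%) of PB-derived MSCs, and after each cell had been thinned to 2500 UMIs it was found in 55.1%, 74.0% and 78.6%. *MSX1* was found in 12.0%, 9.19% and 40.5% of cells, and *TWIST1* in 12.1%, 29.0% and 36.4%, which thinning lowered to 4.46%, 3.21% and 16.3% and to 4.61%, 12.9% and 14.9%. *TBX15* was found in 14.4%, 5.50% and 0.376% of cells (thinned 4.81%, 1.85% and 0.132%). All these shares kept their order of sources at equal depth. *HAND2* was found in 4 AT-derived cells, 4.18% (3.67 to 4.73%) of BM- and 17.1% (16.1 to 18.1%) of PB-derived cells. *HMX2* was found in 1.17% (0.897 to 1.49%) of AT- and 6.22% (5.60 to 6.88%) of BM-derived cells and in 4 PB-derived cells, and *HMX3* in 0.703%, 3.39% and 0 of 5318 cells. After thinning, *HAND2* was found in 0.0370%, 1.36% and 6.13% of AT-, BM- and PB-derived cells. *HMX2* was then found in 0.426% of AT- and 1.95% of BM-derived cells and *HMX3* in 0.259% and 1.08%, with neither found in PB. *MSX2* was found in at most 1.52%, *TWIST2* in at most 2.76% and *PITX1* in at most 2.14% of the cells of any source, nearly all with 1 UMI. How often free RNA alone puts a UMI of these genes into a cell was not measured, as the cultures held no cells known to be without them.

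**Figure D2:**
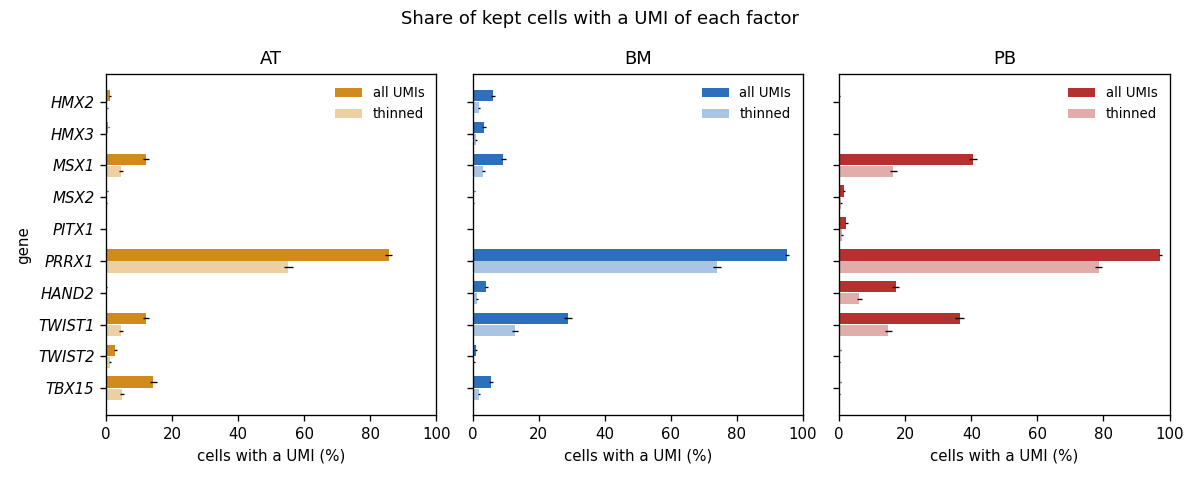
Share of kept cells with at least 1 UMI of each factor (percent, linear axis from 0) in AT, BM and PB, with all UMIs (dark bars) and after thinning every cell to 2500 UMIs (light bars), and with 95% Clopper-Pearson intervals. *PRRX1* reached 85.5% to 97.2% of cells with all UMIs, while no other factor exceeded 40.5% in any source.

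Few of these factors were detected in a cell at a time, a number that depends on depth. With all UMIs, a cell had on average 1.29 of the 10 factors in AT, 1.54 in BM and 1.96 in PB, and 3 or more were found in 5.87%, 9.86% and 25.5% of cells. After thinning, the means were 0.71, 0.97 and 1.17, and 3 or more were found in 0.352%, 1.25% and 3.87% of cells. The cell with the most factors, 7 of the 10, was a BM-derived MSC.

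In BM, *HMX2* and *HMX3* UMIs were gathered in fewer cells than even sampling would give. For each gene, the share of cells found with a UMI was divided by the share that Poisson sampling at 1 common rate would give at the depth of each cell. The ratio was 0.658 for *HMX2* and 0.784 for *HMX3* in BM, against 0.947 and 0.931 in AT. A single BM cell held up to 9 UMIs of *HMX2*, and 133 BM cells held at least 2, compared with 3 in AT. These ratios and counts also depend on the level, which was lower in AT. Whether the UMIs were less gathered in AT than in BM was therefore not tested. *HAND2* had a ratio of 0.803 in BM and 0.964 in PB, although its level was higher in PB. Under a limit of 0.8, set after the values were seen, 2 of the 8 factors with at least 30 UMIs in BM were counted, against 2.01% of genes, and 0 of 7 in AT and 0 of 6 in PB, against 1.42% and 1.53%.

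Pairs of factors in the same cell were counted against the number expected from the shares alone, and only pairs with at least 10 expected cells were judged, as above expectation past 1.5 times that number and as below it where the expected number was more than 1.5 times the found number. Intervals of these ratios are exact Poisson intervals of the found number, divided by the expected number. With all cells thinned to 1 depth, 8 pairs in AT, 10 in BM and 8 in PB could be judged, most of them with *PRRX1*. None lay above expectation, against 1.03%, 1.14% and 1.02% of all gene pairs of the 3 libraries. However, no ratio can exceed the number of all cells divided by that with the commoner gene. After thinning, *PRRX1* was in 74.0% of BM and 78.6% of PB cells, so its pairs there could not pass 1.5. The absence of calls in BM and PB thus says nothing about pairs with *PRRX1*. Below expectation were *MSX1* with *TWIST1* in AT (7 cells against 11.1 expected, ratio 0.63, 0.25 to 1.30) and *TWIST1* with *TBX15* in BM (5 against 13.3, ratio 0.38, 0.12 to 0.88), against 2.82% and 2.97% of pairs, and none in PB, against 2.88%. Another random draw of the thinning gave 0 of 8 such pairs in AT and 4 of 11 in BM, for which the share of all gene pairs is not given here. Without thinning and with expected numbers set within 10 groups of cells ordered by depth, these 2 pairs had ratios of 0.89 and 0.80 on 75 and 72 cells, and no pair was below expectation in AT, BM or PB, against 1.56%, 1.62% and 1.5% of all pairs.

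Thinning left *HMX2*, *HMX3* and *HAND2* in too few BM cells for the pairs among them to be judged. Against *PRRX1*, their ratios after thinning were 0.78 (0.60 to 0.999), 0.77 (0.53 to 1.07) and 0.75 (0.54 to 1.01). The cells found were 63 against 80.7 expected, 34 against 44.4 and 42 against 56.3. Poisson intervals are too wide for a partner found in most cells, so an upper end near 1 does not show that a shortfall is absent. With all UMIs and expected numbers set within the 10 depth groups, 24 BM pairs could be judged and 9 lay above expectation, against 0.672% of all BM pairs. These 9 pairs were all those among *HMX2*, *HMX3*, *HAND2*, *MSX1* and *TBX15* other than *MSX1* with *TBX15*, whose ratio was 1.31 (0.97 to 1.72). *HMX2* and *HMX3* were found together in 99 cells against 28.7 expected (3.45, 2.80 to 4.199). Reads of these adjacent genes can be assigned to either, which limits the reading of this pair in every source. *HMX3* and *HAND2* were found together in 65 cells against 17.6 expected (3.69, 2.85 to 4.71), and *HMX2* and *HAND2* in 102 against 34.6 (2.95, 2.40 to 3.58). The ratios of the basic helix-loop-helix factor *HAND2* to the *HMX* genes thus lay on either side of that between the *HMX* genes, and their difference was not tested. With *TBX15*, the ratios were 2.10 for *HMX2*, 2.13 for *HMX3* and 2.02 for *HAND2*, and with *MSX1* they were 1.69, 1.86 and 1.62. *TWIST1* did not join this set, with ratios of 0.83, 0.82 and 0.92 to *HMX2*, *HMX3* and *HAND2*. *PRRX1* had ratios between 0.97 and 1.01 to every factor judged with it in BM, where 95.2% of cells held it.

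In AT, 13 pairs could be judged and in PB 16, and none lay above expectation, against 0.666% and 0.647% of all pairs. In PB, where *HAND2* and *MSX1* were highest, they shared 430 cells against 404 expected (1.06, 0.96 to 1.17), beside 1.62 (1.22 to 2.11) in BM. *MSX1* and *TBX15* in AT had a ratio of 0.96 (0.78 to 1.17). Pairs of *HMX2* or *HMX3* with a factor other than *PRRX1* could not be judged in AT or PB for want of expected cells. *HMX2* and *HMX3* themselves were found together in 4 AT cells against 0.537 expected (7.45, 2.03 to 19.1), too few cells to be judged by this rule, although the interval lay above 1. Whether this pair differs between AT and BM was not tested.

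**Figure D3:**
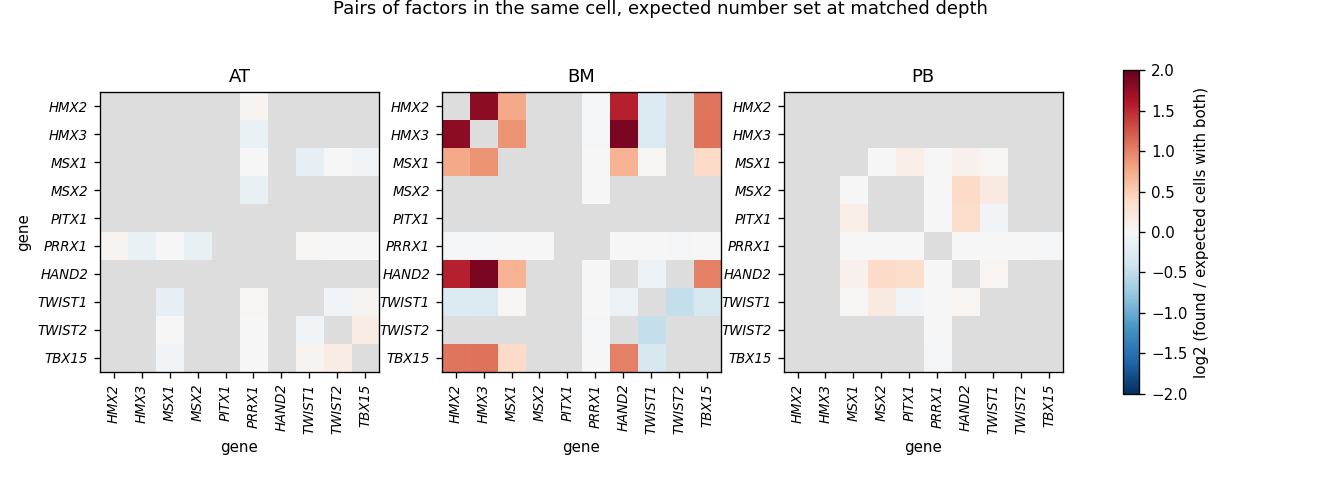
Ratio of found to expected cells with both factors of a pair (log2, colour scale, blue below and red above expectation), with all UMIs and the expected number set within 10 groups of cells by depth, in AT, BM and PB. Pairs with fewer than 10 expected cells are grey. The 9 pairs above expectation lay in BM among *HMX2*, *HMX3*, *HAND2*, *MSX1* and *TBX15*, and no pair judged in AT or PB exceeded a ratio of 1.5. Pairs with *PRRX1*, found in most cells, could not exceed it.

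A UMI of *HMX2* or *HMX3* was found in 437 BM-derived MSCs (7.83%, 7.14 to 8.57%). *HAND2* was at 41.2 CPM (35.4 to 47.7) in these cells and 3.37 CPM (2.80 to 4.03) in the other BM cells. *MSX1* was at 31.2 CPM (26.2 to 37.0) and 12.7 CPM (11.5 to 13.9), and *TBX15* at 25.5 CPM (20.9 to 30.7) and 6.24 CPM (5.45 to 7.11). These 3 factors were higher in the cells with *HMX* UMIs, and *TWIST1* and *PRRX1* were lower. By the same rule of intervals that do not overlap, 27.2% of the 11967 genes with at least 30 UMIs in BM were higher in these cells and 16.1% lower. *TWIST1* was at 30.8 CPM (25.8 to 36.5) against 55.2 CPM (52.8 to 57.7), and *PRRX1* at 390 CPM (372 to 409) against 618 CPM (610 to 626). *TWIST2* was at 3.24 CPM (1.77 to 5.44) against 1.34 CPM (0.985 to 1.77), on 14 UMIs. In AT, the 97 cells with a UMI of *HMX2* or *HMX3* had *MSX1* at 14.6 CPM (7.55 to 25.5), *TBX15* at 21.9 CPM (13.0 to 34.6) and *PRRX1* at 310 CPM (274 to 351). The intervals of these 3 AT levels overlapped with those of the other AT cells.

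**Figure D4:**
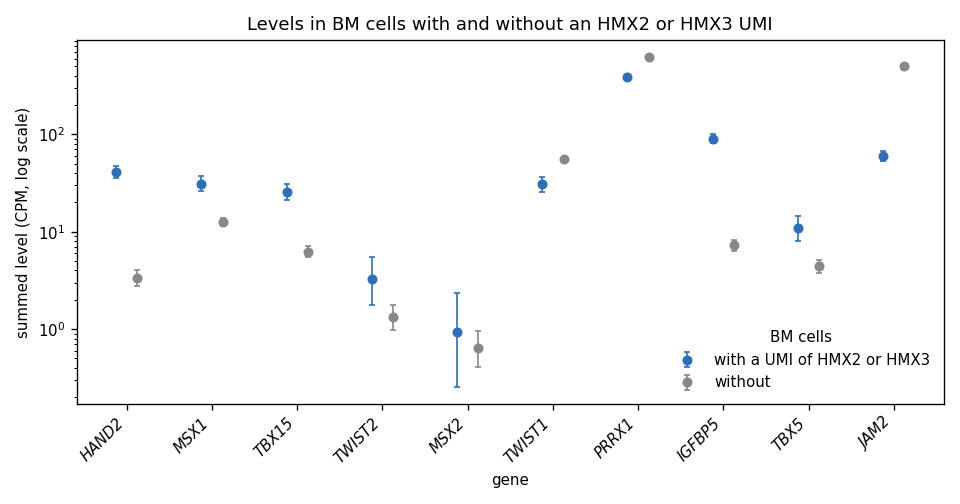
Summed level (CPM, logarithmic axis) in BM cells with a UMI of *HMX2* or *HMX3* (437 cells, blue) and in the other BM cells (grey), with 95% Poisson intervals. *HAND2*, *MSX1*, *TBX15* and *IGFBP5* were higher and *PRRX1*, *TWIST1* and *JAM2* lower in the cells with *HMX* UMIs.

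The BM cells with *HMX* UMIs also differed in genes outside the set. *JAM2*, a junctional adhesion molecule, had no UMI in 78.5% (74.3 to 82.3%) of them and in 16.6% (15.6 to 17.6%) of the other BM cells, although their median depth was higher, 9979 against 6718 UMIs. *IGFBP5*, a binding protein of insulin-like growth factors, was at 90.3 CPM (81.5 to 99.7) against 7.27 CPM (6.41 to 8.20). Over the whole libraries *IGFBP5* had 258 CPM in AT, 16.2 CPM in BM and 0.0240 CPM in PB, and *JAM2* 1.60, 456 and 166 CPM. *HAND2* was at 24.0 CPM (20.9 to 27.5) in the 1196 BM cells without a *JAM2* UMI and 2.66 CPM (2.12 to 3.29) in the 4384 with one, *TBX15* at 17.4 and 5.69 CPM, and *MSX1* at 23.9 and 12.0 CPM. Within the cells without a *JAM2* UMI, 1 of 23 pairs lay above expectation, against 0.458% of all gene pairs in those cells, *HMX3* with *HAND2* (1.57, 1.18 to 2.05), and *HMX2* with *HMX3* had a ratio of 1.41 (1.12 to 1.75). Within the cells with a *JAM2* UMI, 1 of 16 pairs did, against 0.638%, *HMX2* with *MSX1* (2.43, 1.57 to 3.59). Genes of the osteoblast lineage chosen after their values were seen were low where *HMX* UMIs were found, with *DLX5* at 8.80 against 65.3 CPM, *ALPL* at 13.2 against 106 CPM and *SP7* at 3.70 against 26.1 CPM. Also named after their values were seen were *DES*, the muscle intermediate filament desmin, at 19.2 CPM (15.3 to 23.8) against 3.34 CPM (2.77 to 3.99), and the T-box factor *TBX5*, at 10.9 CPM (7.99 to 14.5) against 4.399 CPM (3.74 to 5.14). Of the 7 smooth muscle markers, *DES* among them, 2 had a higher and 3 a lower interval in the *HMX* cells, against the 27.2% and 16.1% of all genes, none was at 0, and their summed level was 2050.2 against 3218.5 CPM. The 5 osteoblast markers summed to 23.6 against 172 CPM, with 1 at 0 in either set, and the 9 stromal markers to 12005 against 21879 CPM, with none at 0. The part of these differences in the levels of the factors was not tested.

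The *HMX* cells of BM also stood apart in the cell cycle. Of the 437 cells, 79.9% (75.8 to 83.5%) were among the 25% of BM cells with the highest share of UMIs on G2/M genes, against 20.3% (19.2 to 21.5%) of the others. Of all BM cells without a *JAM2* UMI, 49.7% (46.9 to 52.6%) were among them, against 18.2% (17.1 to 19.4%) of those with one. The split by *JAM2* is thus in part a split by G2/M share, and their parts were not tested. *HMX2* was at 40.3 CPM (36.7 to 44.1) in the G2/M-high 25% of BM cells and 3.17 CPM (2.56 to 3.90) in the remaining BM cells, *HMX3* at 18.1 CPM (15.8 to 20.8) and 1.29 CPM (0.909 to 1.78), and *HAND2* at 19.9 CPM (17.4 to 22.6) and 2.41 CPM (1.87 to 3.05). *MSX1* was at 26.1 and 10.0 CPM and *TBX15* at 13.7 and 6.14 CPM. *TWIST1* and *PRRX1* had the opposite order, with 43.1 against 56.4 CPM and 481 against 638 CPM. In AT, 25.8% (17.4 to 35.7%) of the cells with *HMX* UMIs were in the G2/M-high set of AT against 24.99% of the others, and *HMX2* was at 1.59 CPM (0.907 to 2.58) and 1.71 CPM (1.27 to 2.24). *HAND2* in PB was at 27.9 CPM (24.9 to 31.2) and 24.2 CPM (22.5 to 26.0). In BM, the G2/M share thus moved with *HMX2*, *HMX3*, *HAND2*, *MSX1* and *TBX15*, and its part in the pairs was not tested beyond the following counts. Within the G2/M-high BM cells, 4 of 22 pairs lay above expectation, against 0.423% of all gene pairs there, *HMX2* with *HMX3* (2.04, 1.65 to 2.50), *HMX3* with *HAND2* (2.04, 1.54 to 2.64), *HMX2* with *HAND2* (1.72, 1.38 to 2.12) and *HMX2* with *TBX15* (1.63, 1.26 to 2.08). In the remaining BM cells 0 of 14 pairs did, against 0.551%, and 1 lay below expectation, against 1.59%, namely *HMX2* with *TWIST1* (0.65, 0.35 to 1.12). None of these 14 pairs was between *HMX2*, *HMX3* and *HAND2*, which were in too few of those cells. Outside the G2/M-high sets, the log2 ratio of AT over BM was -0.63 for *HMX2* and -0.17 for *HMX3*, so that neither passed 1, while *HAND2* and *TWIST1* did and 2 factors in place of 4 were lower in AT than in BM, against 8.15% of all genes in those cells. There, the ratio of AT over PB was -1.03 for *PRRX1*, which then passed, and -0.96 for *MSX2*, which no longer did.

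**Figure D5:**
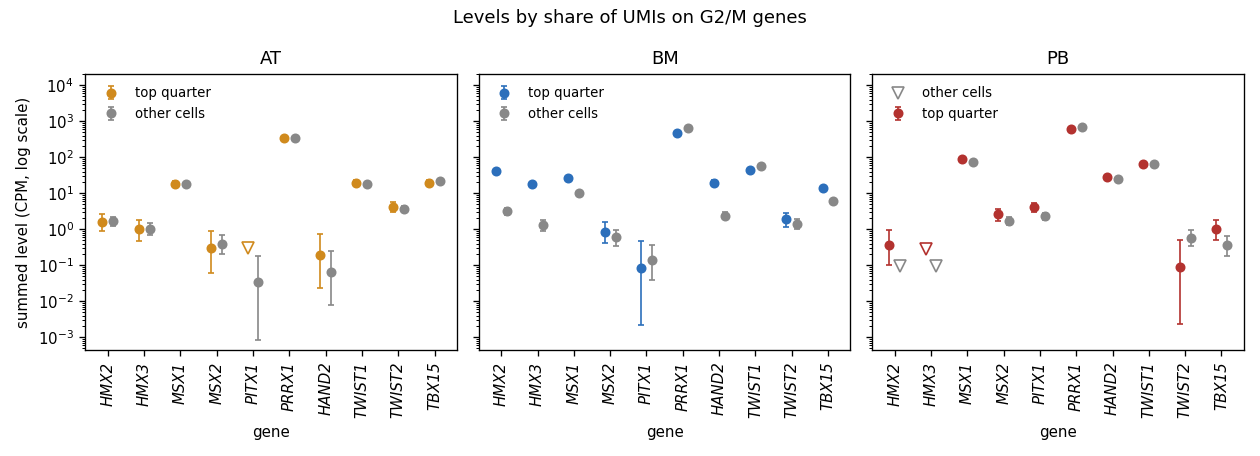
Summed level of each factor (CPM, logarithmic axis) in the 25% of cells with the highest share of UMIs on G2/M genes (coloured) and in the other cells (grey) of AT, BM and PB, with 95% Poisson intervals and open triangles at the floor of 3 UMIs over the set where a set had no UMI. In BM, *HMX2* was at 40.3 and 3.17 CPM, whereas in AT it was at 1.59 and 1.71 CPM.

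High doublet scores and shared barcodes were also counted in the *HMX* cells of BM. Of these, 5.72% (3.74 to 8.33%) had a doublet score (Scrublet) in the upper 5%, against 4.94% (4.36 to 5.57%) of the other BM cells. A barcode kept in another library as well was held by 8 of the 437 (1.83%, 0.794 to 3.58%), against 1.34% (1.05 to 1.69%) of the others. Both intervals overlapped, and the part of doublets and shared barcodes was not tested. Without the cells of high Scrublet score, 9 BM pairs lay above expectation, against 0.688% of all pairs, and 1 below, against 1.66%, namely *TWIST1* with *TWIST2* (0.66, 0.33 to 1.17). Without the barcodes kept in another library, 9 lay above, against 0.672%.

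For each factor, the genes most like it were taken in the source of its highest level, as the 3 with the highest ratio of found to expected shared cells after thinning, among genes in at least 2% of cells with at least 10 expected. For *HMX2* in BM these were *CDCA3* (3.93, 2.99 to 5.08) and *UBE2C* (3.47), which act in mitosis, and the fatty acid binding protein *FABP5* (3.39), out of 2788 genes. For *HMX3* they were the calcium pump *ATP2B1* (3.36), the histone *H2AFX* (3.22) and the smooth muscle actin *ACTG2* (3.07), out of 1610. With expected numbers set within the 10 depth groups, *HMX3* ranked first for *HMX2* (3.45), followed by *IGFBP3* (3.14) and *EMB* (3.13), and *SERPINB10* (3.73), *HAND2* (3.69) and *IGFBP5* (3.63) ranked first for *HMX3*. For *HAND2* in PB the genes after thinning included *CEP295* (2.20) and *RBM14* (1.89), and for *TBX15* in AT *RNF34* (1.90), *RBM4B* (1.89) and *NPLOC4* (1.76). For *TWIST1* in PB they were *ZNF318* (1.81), *SHMT1* (1.80) and *EEF1AKMT3* (1.65). The genes for *MSX1*, *MSX2*, *PRRX1* and *PITX1* in PB and *TWIST2* in AT had ratios from 1.12 to 1.93. These ratios describe cells of 1 library each and are the highest of many.

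Other patterning factors and partners of these proteins were taken from 5 lists of 81 genes, of which 78 were in the matrices and 55 had the minimum of 30 UMIs that the share over all genes uses. Between AT and BM, 7 of the 55 were higher in AT, against 2.51% of all genes, and 18 lower, against 7.71%. Between AT and PB the numbers were 11 and 14, against 4.30% and 5.40%, and between BM and PB 15 and 9, against 5.52% and 2.16%. The lists were chosen with earlier results of these data known. Of these genes, 22 also reached 10 CPM in a source, with 6 highest in AT, 11 in BM and 5 in PB.

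Of 23 limb and trunk factors, 18 had 30 UMIs, and 5 were higher and 5 lower in AT than in BM, against 2.51% and 7.71% of all genes. In AT against PB 6 were higher and 2 lower (4.30% and 5.40%), and in BM against PB 4 and 2 (5.52% and 2.16%). *OSR1*, a zinc finger factor of lateral and intermediate mesoderm, had 64.1, 10.1 and 9.97 CPM in AT, BM and PB, and its paralogue *OSR2* had 31.1, 8.40 and 3.77 CPM, both highest in AT as *TBX15* was. BM and PB were not distinguishable for *OSR1* (1.02-fold, 0.885 to 1.17). *SHOX2*, a limb homeobox factor, had 47.9, 10.8 and 45.1 CPM, and *IRX3* had 22.8, 77.3 and 79.6 CPM. *TBX5*, the forelimb T-box factor, was named after its values were seen, with 2 UMIs in AT, 205 in BM (5.09 CPM, 4.42 to 5.84) and none in PB. Of 24 craniofacial factors, 17 had 30 UMIs. Of these, 1 was higher and 6 lower in AT than in BM, against 2.51% and 7.71%, and 2 were higher and 8 lower in AT than in PB, against 4.30% and 5.40%. Between BM and PB, 4 were higher and 5 lower in BM, against 5.52% and 2.16%. *DLX5* had 0.3001, 59.2 and 41.0 CPM, *ALX1* 0.100, 0.0994 and 11.7 CPM, *GSC* 5.03, 0.124 and 10.9 CPM and *FOXC1* 1.05, 16.9 and 2.57 CPM. *ALX1*, a homeobox factor of the frontonasal mesenchyme, was thus highest in PB as *MSX1*, *MSX2* and *PITX1* were.

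Of 11 heart and visceral factors, 3 had 30 UMIs, of which 1 was higher and 2 were lower in AT than in PB, against 4.30% and 5.40%. In AT against BM 1 was higher and 1 lower (2.51% and 7.71%), and in BM against PB 0 and 1 (5.52% and 2.16%). *MEF2C*, a partner of *HAND2* in the heart, had 13.7, 28.3 and 110 CPM, the order of sources of *HAND2*. Of the 11 partners and neighbours of the basic helix-loop-helix factors, all of which had 30 UMIs, none was higher and 5 were lower in AT than in BM, against 2.51% and 7.71%. In AT against PB 1 was higher and 2 lower (4.30% and 5.40%), and in BM against PB 5 and 1 (5.52% and 2.16%). *TCF12*, an E protein that pairs with TWIST and HAND proteins, had 11.1, 12.5 and 37.5 CPM. *ID1* and *ID3*, which bind E proteins without binding DNA, were highest in BM, with 484, 893 and 298 CPM and 432, 929 and 302 CPM. *SNAI2*, a zinc finger repressor, had 7.50, 55.1 and 5.55 CPM, and *SNAI1* 24.9, 69.1 and 60.9 CPM, the latter lower in AT as *TWIST1* was.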

How the data were processed

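Cultured MSCs of 3 sources from 1 mare were measured by 10x 3′ single-cell RNA sequencing, 1 library per source. The authors mapped reads to EquCab3.0 with Cell Ranger, counted UMIs per gene with ESAT, which includes reads just downstream of a gene and leaves out overlapping exons of opposite strands, and deposited the raw UMI counts of every gene in every barcode, not normalized. Duplicated features were counted in a second run and merged. Symbols, chromosomes and strands are those of the deposited matrices, whose total counts were 48688055, 45327399 and 47380686 for AT, BM and PB. ESAT extension and 3′ priming can assign reads of adjacent genes to either, so *HMX2* and *HMX3* are best read together.

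From these counts, barcodes were kept as stated, leaving 39980656, 40239295 and 41622445 UMIs. The study also removed multiplets with DoubletDetection, which was not run here, and leaving out cells of high Scrublet score was an alternative. Levels, shares, ratios and pairs were computed with NumPy 2.4.6, SciPy 1.17.1 and pandas 2.3.3, Scrublet scores with Scanpy 1.11.5 and TMM factors with edgeR 4.0.16. Fold intervals are exact binomial intervals conditional on the summed UMIs. The functions were tested on simulated data. No test was run across cells, since each source had 1 library. All 10 factors were named in each source, other factors where they passed a log2 ratio of 1 and reached 10 CPM, and the most similar genes by the rule in the text. The factors, lists and thresholds were chosen with earlier results of these data known. Gene, promoter and protein sequences were not used here. Some results on other genes are not reported here.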

Additional observations from a re-analysis of the deposited data

Results flagged for a closer look

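The barcodes left out for too few UMIs entered the comparisons only in the alternative with all barcodes of at least 500 UMIs. Among factors with more than 3 UMIs in them, levels lay above those of the kept cells for 6 of 7 in AT, 1 of 5 in BM and 0 of 4 in PB, with Poisson intervals that did not overlap. The same held for 20.3% of all genes with more than 3 UMIs there in AT, 5.95% in BM and 7.33% in PB. Lower without overlap were *TBX15* in AT (2.89 CPM, 1.65 to 4.70, against 21.3) and *PRRX1* in BM and PB. *PRRX1* was at 499 CPM (449 to 554) against 593 CPM in BM and 513 CPM (458 to 572) against 677 CPM in PB. The share of all genes that were lower is not given here, so nothing is read from these. In the 6155 AT barcodes under the lower limit, *HAND2* was at 22.4 CPM (18.7 to 26.7), against 0.100 CPM in the kept AT cells and 25.2 CPM in the kept PB cells. *MSX1* was at 70.9 CPM, *MSX2* at 1.99 CPM, *PRRX1* at 638 CPM, *TWIST1* at 60.0 CPM and *PITX1* at 1.09 CPM. Of these AT barcodes, 5716 also occurred in another library, and they held all 124 *HAND2* UMIs, while the other 439 held none. *TBX15* was at 0.203 CPM in the shared barcodes and 24.8 CPM (13.9 to 40.9) in the others, beside 21.3 CPM in the kept AT cells and 0.529 CPM in the kept PB cells. In the 526 BM barcodes under the limit, *TWIST1* was at 79.96 CPM (60.6 to 104), against 52.6 CPM in the kept BM cells, on 57 UMIs. On 3 UMIs, *TWIST2* in the 554 PB barcodes under the limit was at 4.79 CPM (0.988 to 14.0), against 0.456 CPM (0.275 to 0.713) in the kept PB cells.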

How the results depend on the processing

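No factor with a log2 ratio past 1 changed its direction under any alternative. The number of factors higher in AT than in BM, 1 as reported, was 2 after thinning and with TMM factors. Thinning also brought *TWIST2* past the threshold for BM over PB (1.12), giving 4 factors in place of 3, and the mean of single-cell CPM took *HMX3* below it for AT over PB (0.95), giving 3 in place of 4. A pseudocount of 25 CPM, which shrinks low genes most, gave 0 higher and 0 lower for AT against BM, 0 and 3 for AT against PB and 0 and 1 for BM against PB. The shares of all genes under these settings are not given here, so nothing is read from these counts. TMM factors moved the median log2 ratio of all genes from -0.21 to 0.00 for AT against BM. They moved 8 log2 ratios of the factors beyond the intervals of counting error and left 22 within. For AT over BM, *MSX1* went from 0.27 to 0.53, *TWIST1* from -1.49 to -1.22 and *TBX15* from 1.26 to 1.52. For BM over PB, *MSX1* went from -2.36 to -2.59 and *TWIST1* from -0.31 to -0.54. The remaining ratios that moved were those of *PRRX1*. Without the 25% of cells highest in G2/M share, an alternative added after the data were seen, 2 factors were lower in AT than in BM, against 8.15% of all genes. For pairs above expectation, BM had 9 of 23 without thinning and 9 of 24 within the 10 depth groups, and PB had 1 of 11 with at least 5 expected cells. For pairs below expectation, AT had 0 of 13 without thinning and within depth groups. It had 0 of 8 with a ratio of 2 and with another draw, and 0 of 5 outside the G2/M-high cells. BM had 0 of 23 without thinning and 0 of 24 within depth groups. Outside the G2/M-high cells it had 0 of 7 with thinning and 1 of 14 within depth groups. With at least 5 expected cells BM had 3 of 13, and with another draw 4 of 11. PB had 1 of 11 with at least 5 expected cells and 1 of 13 within depth groups in the G2/M-high cells. Where no share of all gene pairs was given above, nothing is read from these counts. The planned restriction to cells with few cell cycle UMIs left 8, 8 and 4 cells and was not used. Leaving out barcodes that another library holds left no PB cell, so it gave values for AT and BM alone, and leaving out barcodes kept in another library was added and moved no log2 ratio beyond its interval. No paired analysis was possible because each source had 1 library, and no library could be left out. Levels of a few UMIs, as for *PITX1* and *HAND2* in AT and *HMX2* in PB, are limited by depth.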
